A study of Mus musculus with 8 samples.

Results

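The comparison described here is the imiquimod response of mouse dorsal skin within the alloferon arm of the study. It is the log2 value on the array labelled KO_IMQ_Allo minus the log2 value on the array labelled KO_Allo, so it uses 2 of the 8 arrays of the series. It was taken for every gene with a probe set of a single gene symbol, which gave 22180 genes of 41345 probe sets. The question is which genes still differed with imiquimod when both arrays carried alloferon. Each label has 1 array, so this difference has no replicate and no p-value.

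All mice were male. The arrays named WT come from C57BL/6 mice, and those named KO from the strain B6.Cg-Il22ra1tm1.1Koll/J, which carries a targeted allele of Il22ra1. Per the labels' protocols, 83.3 mg of 5% imiquimod (IMQ) cream (Aldara) went on dorsal skin and ear each day from day 1 to day 7, with a vehicle or alloferon cream following 6 hours later. The label KO_Allo does not name IMQ and KO_IMQ_Allo does. The protocol text is the same for every sample and places the alloferon cream after an IMQ application, so whether the skin on KO_Allo had received IMQ is not settled by the labels. Below, "without IMQ" means only that a label does not name IMQ, and each difference of the alloferon pair is KO_IMQ_Allo minus KO_Allo as labelled. The other arrays form 3 pairs without alloferon in the label, called here the WT pair (WT_CTRL and WT_IMQ), the KO plain pair (KO_CTRL and KO_IMQ) and the KO B pair (KO_CTRL-B and KO_IMQ_B). They share no array with the alloferon pair. The study states 4 mice per group. Whether an array holds RNA of 1 mouse or of several, what the letter B stands for, and in which cells the Il22ra1 allele acts are not given in the sources used here. Il22ra1 itself read 8.92 on KO_Allo and 9.40 on KO_IMQ_Allo, against 8.23 on WT_CTRL and 8.64 on WT_IMQ. Its signal was thus not lower on the KO arrays. Neither whether its probes lie in the part that the allele alters nor whether the allele removes the transcript in this skin was tested.

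Imiquimod activates Toll-like receptor 7, and on mouse skin it brings about a psoriasis-like inflammation in which IL-23, IL-17, IL-22 and IL-36 act on keratinocytes. Keratinocytes then thicken the epidermis, switch to wound keratins and injury-type cornified envelope proteins, and make antimicrobial proteins and chemokines that draw neutrophils. IL-22 reaches epithelial cells through a receptor whose alpha chain is the product of Il22ra1. Alloferon is a short immunomodulatory peptide first isolated from an insect.

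In the alloferon pair, most injury-type cornified envelope genes and several antimicrobial genes were higher with IMQ, and most hair inner root sheath and hair shaft genes were lower. Keratins of the wound response differed by less than 1 log2 unit, and on KO_Allo 3 of the 4 read above every other array without IMQ. A set of 13 genes, Il1b, Ccl3 and Mmp13 among them, was lower by 1 log2 unit or more although higher by as much in each of the other pairs. The pair differed by 1 log2 unit or more (2-fold) upward in 171 genes, 0.771% of all genes, and downward in 208 genes, 0.938%. That is 379 genes in either direction, or 1.71%. The WT pair had 555 genes higher (2.5%) and 470 lower (2.12%), 4.62% in all. The KO plain pair had 597 (2.69%) and 492 (2.22%), 4.91% in all, and the KO B pair 406 (1.83%) and 287 (1.29%), 3.12% in all. Over all genes the differences had an SD of 0.37 log2 units in the alloferon pair, against 0.53, 0.53 and 0.46 in the WT, KO plain and KO B pairs. At the threshold, Acp7 lay just inside at 1.001 and Mir1953 just outside at 0.997. Among the falls Krtap14 lay just inside at -1.004, and Krtap4-13 was the nearest gene outside, at -0.9996.

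Cornified envelope genes and antimicrobial proteins made up most of the largest rises. The 15 largest rises among genes above the median level were led by Serpinb3a at 3.42 log2 units, a clade B serpin of squamous epithelium that inhibits proteases. S100a8 differed by 3.38 and S100a9 by 3.22; their products form calprotectin, an alarmin made by neutrophils and by inflamed keratinocytes. The others were Lce3f at 3.31, Atp12a at 3.26, Sprr2e at 3.19, Sprr2d at 3.17, Sprr2b at 2.79, Alox8 at 2.75, Il1f6 at 2.62, Chil1 at 2.50, Lcn2 at 2.37, Lce3e at 2.29, Lce3a at 2.13 and Ereg at 2.10. Atp12a encodes the non-gastric proton and potassium pump, Alox8 a lipoxygenase, Lcn2 a lipocalin that binds bacterial iron carriers, and Ereg the EGF receptor ligand epiregulin. Il1f6 is the older symbol of IL-36 alpha.

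The promoters of S100a8 and Sprr2d are shown because both genes kept a rise above 3 log2 units in the alloferon pair. They are the 250 bases before and 50 after the RefSeq start on GRCm38.p6, written on the gene's strand, at chr3:90668821-90669120 (plus strand) for S100a8 and chr3:92338890-92339189 (plus strand) for Sprr2d. Capitals mark a TATA box (TATAAA) in both and an AP-1 motif (TGANTCA) in Sprr2d.
S100a8: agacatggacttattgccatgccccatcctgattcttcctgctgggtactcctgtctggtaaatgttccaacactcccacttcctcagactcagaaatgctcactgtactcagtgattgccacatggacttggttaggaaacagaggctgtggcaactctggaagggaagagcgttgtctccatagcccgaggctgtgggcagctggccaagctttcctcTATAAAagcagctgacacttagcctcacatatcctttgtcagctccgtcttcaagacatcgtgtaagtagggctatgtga
Sprr2d: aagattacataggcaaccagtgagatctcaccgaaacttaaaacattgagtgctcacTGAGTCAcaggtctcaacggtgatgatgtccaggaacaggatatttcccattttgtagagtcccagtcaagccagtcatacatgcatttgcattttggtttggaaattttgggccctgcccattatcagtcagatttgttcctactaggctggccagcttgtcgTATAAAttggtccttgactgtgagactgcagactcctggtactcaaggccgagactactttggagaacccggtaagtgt

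S100a8 read 7.92 on KO_Allo and 11.30 on KO_IMQ_Allo. Without IMQ it read 5.57 on WT_CTRL, 5.27 on KO_CTRL and 5.74 on KO_CTRL-B, and with IMQ 11.14 on WT_IMQ, 11.92 on KO_IMQ and 11.52 on KO_IMQ_B. The 4 arrays labelled IMQ thus lay together above the other 4, of which KO_Allo was the highest. Sprr2d, a small proline-rich protein of the cornified envelope, showed the same order, with 6.95 on KO_Allo against 3.67, 3.76 and 5.21 on WT_CTRL, KO_CTRL and KO_CTRL-B. Its IMQ arrays read 10.12 on KO_IMQ_Allo and 10.05, 10.69 and 10.39 on WT_IMQ, KO_IMQ and KO_IMQ_B. Serpinb3a read 5.21 on KO_Allo and 8.63 on KO_IMQ_Allo, and the other pairs ran from 3.43 to 8.62, 3.72 to 9.36 and 3.99 to 8.90. In these genes the smaller difference of the alloferon pair lay on the side of the array without IMQ. Atp12a and Alox8 did not share this: their KO_IMQ_Allo values of 10.50 and 10.12 were above every other IMQ array, the highest of which read 9.55 for Atp12a and 9.37 for Alox8, both on KO_IMQ.

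Of the 19 measured cornified envelope genes induced by injury, 14 were higher by 1 log2 unit or more in the alloferon pair and 0 lower, with a median of 1.70. The median was 3.04 in the WT pair, 4.23 in the KO plain pair and 2.96 in the KO B pair, and over all genes the alloferon pair's median was 0.00082. All 6 genes of the late cornified envelope group Lce3 passed 1 log2 unit, from 1.19 for Lce3c to 3.31 for Lce3f. So did 6 of the 8 Sprr2 genes. Genes of the Lce3 and Sprr2 groups are close copies of each other, so probes may read several of them. The stefin A and clade B serpin list, inhibitors of cysteine and serine proteases, had 9 of 16 members higher and 1 lower. Its median of 1.16 stood beside 0.64, 1.23 and 1.37 in the WT, KO plain and KO B pairs. Stfa2l1 differed by 1.64 and Serpinb3d by 1.69, and Serpinb6d was the member lower, at -1.43.

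Barrier genes leaned the same way with small differences. All 13 measured epidermal lipoxygenase and barrier lipid genes were above 0, with a median of 0.58 and 3 past 1 log2 unit. These were Sdr9c7 at 1.46 and Alox12b at 1.43, which act on the linoleate of barrier ceramides, and Smpd3 at 1.11, a sphingomyelinase. Homeostatic differentiation genes had a median of 0.39 over 21 members, with 2 higher (Cnfn 1.48 and Lce1g 1.05) and 2 lower (Tchhl1 -3.50 and Crnn -2.60). Basal epidermis markers had a median of -0.04 over 7 members, and none differed by 1 log2 unit. Loricrin (Lor, 0.48), filaggrin (Flg, 0.35) and Krt14 (0.09) all differed by less than 1 log2 unit.

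Antimicrobial proteins and alarmins held 7 of 15 members past 1 log2 unit and 1 lower, with a median of 0.67, or 1.69 over the 10 members left without dim genes. The other pairs had medians of 1.98, 2.88 and 2.01 in the order WT, KO plain, KO B. Beside S100a8, S100a9, Chil1 and Lcn2, the beta-defensins Defb3 (1.90), Defb6 (1.49) and Defb14 (1.14) were higher. S100a7a was lower, at -1.45. Saa3, a serum amyloid A protein of inflamed tissue, differed by only -0.05: it read 7.92 on KO_Allo and 7.87 on KO_IMQ_Allo, against 4.87 to 6.00 on the other arrays without IMQ and 9.64 to 10.93 on the other IMQ arrays. Neither array of the alloferon pair lay within the range of its counterparts.

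**Figure D1:**
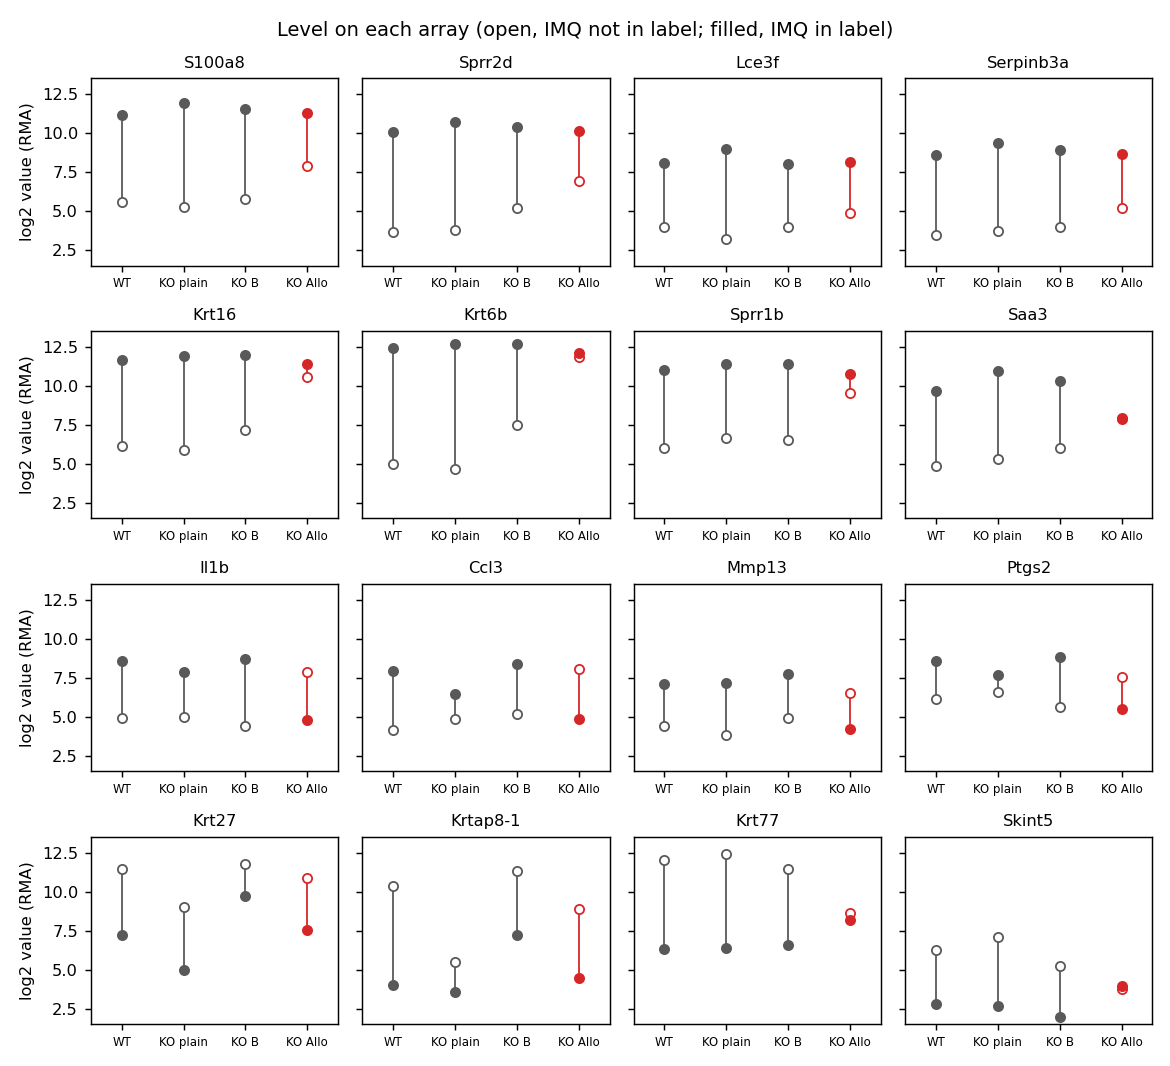
Level of 16 genes on each of the 8 arrays (log2 RMA value, vertical axis) for the WT, KO plain, KO B and KO Allo pairs; open circles are arrays whose label does not name IMQ, filled circles those whose label does, a line joins a pair, and the alloferon pair is red. In the first row all pairs rise; Krt6b starts at 11.83 on KO_Allo; Il1b, Ccl3, Mmp13 and Ptgs2 run downward in the alloferon pair; Krt27 and Krtap8-1 fall in every pair.

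The wound keratins were the list in which the alloferon pair stood farthest below the other pairs. Krt6a, Krt6b, Krt16 and Krt17, which keratinocytes switch on when they heal or proliferate, had a median of 0.39, against 4.39, 5.26 and 3.82, and 0 of 4 reached 1 log2 unit. Krt6b read 11.83 on KO_Allo and 12.12 on KO_IMQ_Allo. On the arrays WT_CTRL, KO_CTRL and KO_CTRL-B it read 5.00, 4.67 and 7.49, and on WT_IMQ, KO_IMQ and KO_IMQ_B 12.44, 12.66 and 12.71. Krt16 read 10.59 and 11.43 in the alloferon pair, against 5.89 to 7.19 on the other arrays without IMQ and 11.64 to 11.99 on the other IMQ arrays. KO_Allo thus carried the keratins near the level of an IMQ array. Krt17, a keratin of hair follicle and wound, was 10.19 on KO_Allo, within the range of 9.55 to 10.25 on the other arrays without IMQ.

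Sprr1b behaved like Krt16 and was 1 of only 2 genes to pass the test of the alloferon pair against the other pairs. It read 9.55 on KO_Allo and 10.75 on KO_IMQ_Allo, a difference of 1.20. The other pairs ran from 6.05 to 11.01, 6.65 to 11.43 and 6.52 to 11.38. In limma the alloferon difference was lower than that of the other pairs by 3.67 ± 0.22 (SE; estimate -3.67; Benjamini-Hochberg adjusted p = 0.0251). Fetub, a secreted protease inhibitor, had an estimate of -2.88 ± 0.22 (limma, adjusted p = 0.0613) and Tmprss11g, a serine protease of epithelia, -3.33 ± 0.31 (limma, adjusted p = 0.107), so neither passed. Krt16 had -4.61 ± 0.45 (limma, adjusted p = 0.112) and Krt6b -6.59 ± 0.99 (limma, adjusted p = 0.191). S100a8 had -2.62 ± 0.43 (limma, adjusted p = 0.218).

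That test asks, for each gene, whether the IMQ difference of the alloferon pair departs from the mean of the other 3 pairs, with the spread among those 3 pairs as the error. It called 2 of 22180 genes (0.00902%), Mmp13 and Sprr1b, both lower, and 1828 genes had an unadjusted p under 0.05. On simulated data it found 0% of genes that differed by 1 or 2 log2 units and 64.5% at 3. Those genes were drawn at random from all genes, so the shares need not hold for the IMQ-responsive genes. Il1b (-6.70), Krt6b (-6.59) and Ccl3 (-6.05) were not called, so a missing call says little at larger sizes as well. The count was 23 genes without the KO plain pair, 24 without the KO B pair and 0 on KO arrays alone, where neither Mmp13 nor Sprr1b passed. No label ties an array to animals of its own, so the p-values describe how far these arrays spread, and part of that spread may be technical.

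The promoters of Il1b and Mmp13 are shown because both genes were higher with IMQ in the other 3 pairs and lower in the alloferon pair. They lie at chr2:129371090-129371389 (minus strand) and chr9:7272264-7272563 (plus strand) of GRCm38.p6, from RefSeq. Capitals mark the TATA box (TATAAA) and, in Mmp13, the AP-1 motif (TGANTCA).
Il1b: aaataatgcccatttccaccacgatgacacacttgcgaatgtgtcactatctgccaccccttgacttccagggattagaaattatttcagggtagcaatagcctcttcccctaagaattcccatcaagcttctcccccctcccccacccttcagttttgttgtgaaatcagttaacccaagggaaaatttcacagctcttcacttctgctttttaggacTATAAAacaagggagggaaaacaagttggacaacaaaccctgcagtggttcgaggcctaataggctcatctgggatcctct
Mmp13: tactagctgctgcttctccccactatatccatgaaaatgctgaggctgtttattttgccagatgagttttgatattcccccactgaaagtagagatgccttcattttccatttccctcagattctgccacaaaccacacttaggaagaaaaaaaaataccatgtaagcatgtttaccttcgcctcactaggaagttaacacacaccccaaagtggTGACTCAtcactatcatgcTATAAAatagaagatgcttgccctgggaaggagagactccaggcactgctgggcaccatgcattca

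Il1b, which encodes the cytokine IL-1 beta of activated myeloid cells, read 7.86 on KO_Allo and 4.78 on KO_IMQ_Allo, a difference of -3.08. It read 4.91, 4.96 and 4.39 on WT_CTRL, KO_CTRL and KO_CTRL-B, and 8.54, 7.89 and 8.68 on WT_IMQ, KO_IMQ and KO_IMQ_B. The alloferon pair was therefore reversed on both sides: its array without IMQ lay by the IMQ arrays, and its IMQ array by those without. The limma estimate against the other pairs was -6.70 ± 0.50 (adjusted p = 0.0613), which missed the threshold. It passed in 5 of 7 alternative settings, with adjusted p from 0.00705 to 0.303.

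Mmp13, a collagenase of wounds and cartilage, read 6.54 on KO_Allo and 4.23 on KO_IMQ_Allo. The pairs WT, KO plain and KO B ran upward from 4.38 to 7.11, 3.85 to 7.15 and 4.91 to 7.74. The limma estimate was -5.27 ± 0.29 (Benjamini-Hochberg adjusted p = 0.0251, from 0.00189 to 0.247 over 6 alternatives). KO_IMQ_Allo lay below all 3 other IMQ arrays, and KO_Allo above all 3 other arrays without IMQ. Mmp13 was among the genes that the filter on dim genes left out, so it has no value in that alternative. Ccl3, a chemokine for neutrophils and monocytes, ran from 8.03 down to 4.86, and its pairs elsewhere from 4.15 to 7.93, 4.85 to 6.47 and 5.14 to 8.39. Its estimate of -6.05 ± 0.77 (limma, adjusted p = 0.136) did not pass. Ptgs2, the inducible cyclooxygenase, ran from 7.54 down to 5.51.

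In all, 13 genes were higher by 1 log2 unit or more in each of the other 3 pairs and lower by as much in the alloferon pair. They were Acod1, Ccl3, Ccr1, Cd14, Clec4d, Clec4e, Cxcl2, Hdc, Il1b, Mmp13, Prg4, Ptgs2 and Slfn4. Of these, Clec4d and Clec4e are in the neutrophil marker list, Cd14 in the macrophage list, Hdc in the mast cell list, and Ccl3 and Cxcl2 among the chemokines that draw neutrophils. Acod1 makes itaconate, Ccr1 is a receptor for Ccl3, Cd14 is the co-receptor for bacterial lipopolysaccharide, and Clec4d and Clec4e are lectin receptors for mycobacterial lipids. Hdc makes histamine. On KO_Allo each of the 13 lay above all 3 other arrays without IMQ, with a median of 1.64 log2 units above their mean. On KO_IMQ_Allo each lay below all 3 other IMQ arrays, with a median of -2.14. The genes were chosen on these same differences, which forces a departure on the side without IMQ, on the IMQ side or on both. The positions describe the chosen genes and are not separate support. Clec4d had a limma estimate of -3.21 ± 0.31 (adjusted p = 0.107) and Cd14 of -2.85 ± 0.28 (limma, adjusted p = 0.112).

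Neutrophil markers had a median of 0.09 over 18 members, with 2 higher (S100a8 and S100a9, which keratinocytes also make) and 2 lower (Clec4d and Clec4e). Without dim genes the median was 0.78, over the 6 members left. The other pairs had medians of 1.49, 1.28 and 1.47. Cxcr2 and Itgam, neutrophil surface receptors, each differed by 0.78, while Csf3r differed by -0.13 and Mmp9 by -0.86. Monocyte and macrophage markers had a median of 0.20 over 14 members against 1.22, 1.33 and 1.11, with Adgre1, a macrophage surface receptor, at 1.20 and Cd14 at -1.04. The median level of the neutrophil list was 5.79 on KO_Allo, above the 5.06 to 5.17 of the other arrays without IMQ. It was 5.35 on KO_IMQ_Allo, below the 6.10 to 6.43 of the other IMQ arrays. In whole skin, fewer cells of a type and less RNA per cell cannot be told apart.

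Mast cell, matrix and fibroblast genes leaned down in the alloferon pair and up in the others. Mast cell markers had a median of -0.57, against 1.29, 0.34 and 0.41, with Hdc at -1.29 and the mast cell proteases Cma1 at -1.13 and Cpa3 at -0.80. Matrix metalloproteinases and remodelling genes had a median of -0.42, against 1.08, 1.15 and 0.92. Of their 12 members, 9 were opposite in sign to the mean of the other 3 pairs. All 13 fibroblast and collagen genes were below 0, with a median of -0.51, against 0.46, 0.22 and 0.16. Postn, the matrix protein periostin, reached -1.02. Over 44 measured collagen genes the median was -0.29, with 0 higher and 3 lower. The fibroblast list's median level was 10.75 on KO_Allo, above the 9.82 to 10.36 of the other arrays without IMQ, and 10.38 on KO_IMQ_Allo, below the 10.48 to 11.10 of the other IMQ arrays.

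Of the cytokines, the IL-36 branch was higher and the rest of the IL-1 family mixed. Il1f6, Il1f8 and Il1f9, which encode IL-36 alpha, beta and gamma, differed by 2.62, 1.55 and 1.82. Il1f9 read 8.32 on KO_Allo and 10.14 on KO_IMQ_Allo, inside the 10.03 to 10.51 of the other IMQ arrays. Il1a differed by 0.66, its antagonist Il1rn by 0.77, and the receptor Il1r1 by -0.71. The family's median was 0.62 over 13 members, against 1.73, 1.59 and 1.37. IL-23 and IL-17 genes were all above 0 (13 of 13), as were 50.1% of all genes in the alloferon pair. In the WT, KO plain and KO B pairs 10, 11 and 7 of the 13 were above 0. None reached 1 log2 unit in the alloferon pair, with Il23r at 0.95, Il17f at 0.93 and Il17a at 0.70. Il17a (3.81 and 4.51) and Il23r (4.46 and 5.42) read under the array medians of 5.68 to 5.73 on KO_Allo and KO_IMQ_Allo. IL-22 receptor and IL-20 family genes had a median of 0.31, none past 1 log2 unit, against 0.25, 0.60 and 0.37. Of the 11 members, 6 were above 0 and 6 were opposite in sign to the mean of the other 3 pairs. Il20 was at 0.76 and Il22ra2, the soluble IL-22 decoy receptor, at 0.77. In the WT, KO plain and KO B pairs Il22ra2 was lower, at -1.14, -1.04 and -0.76. Il24 was at -0.59, against 0.82, 0.60 and 0.86. Il22ra2 and Il24 also read under the array medians on KO_Allo and KO_IMQ_Allo.

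Tlr7, the imiquimod receptor, read 6.36 on KO_Allo and 6.98 on KO_IMQ_Allo, and rose from 5.12 to 7.10 in the WT pair. The Toll-like receptor 7 and 8 list had a median of 0.24 over 10 members, against 0.83, 0.33 and 0.60 in the WT, KO plain and KO B pairs. Type I interferon-stimulated genes had a median of -0.34, against 0.25, -0.10 and 0.00014 in the WT, KO plain and KO B pairs. In the alloferon pair 17 of 19 were below 0, as were 49.9% of all genes, and none was past 1 log2 unit. Above 0 were 2 of the 19 in the alloferon pair and 16, 5 and 10 in the other pairs. Mx2 was lowest at -0.90, against 0.22, -1.66 and -0.23. Interferon gamma and antigen presentation genes had a median of 0.20, against 0.05, -0.22 and 0.05. Chemokines that draw neutrophils had a median of -0.31, against 0.46, 0.41 and 0.81. Ccl3 differed by -3.17, Cxcl2 by -1.53 and Cxcl1 by -0.09. Among chemokines for monocytes and T cells, whose median was -0.21 against 0.22, 0.44 and 0.11, Ccl12 (-1.27) and Ccl4 (-1.15) were lower. The NF-kB list had a median of 0.49, against 0.23, 0.45 and 0.50. In it Zc3h12a, an RNase that degrades inflammatory transcripts, was the one member past 1 log2 unit, at 1.78. Of 7 EGF receptor and ligand genes, Ereg alone differed by 1 log2 unit or more, at 2.10. Mitotic genes had a median of 0.14 over 20 members and immediate early genes 0.19 over 12, with none past 1 log2 unit in either.

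The promoter of Krt27, a keratin of the hair inner root sheath, is shown because the gene was lower with IMQ by more than 1 log2 unit in all 4 pairs. It lies at chr11:99351069-99351368 (minus strand) of GRCm38.p6, from RefSeq, and capitals mark its TATA box (TATAAA).
Krt27: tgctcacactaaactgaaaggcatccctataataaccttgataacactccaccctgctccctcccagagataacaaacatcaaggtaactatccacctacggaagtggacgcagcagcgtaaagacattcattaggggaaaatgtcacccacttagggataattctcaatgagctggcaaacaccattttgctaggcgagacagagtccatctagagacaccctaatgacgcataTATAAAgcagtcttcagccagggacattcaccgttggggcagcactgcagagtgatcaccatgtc

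Hair follicle genes made up nearly all of the largest falls. The 15 largest were Krtap4-2 at -5.13, Krtap8-1 at -4.42, Krt26 at -4.08, Krtap4-16 at -3.68, Prr9 at -3.60, Krtap4-8 at -3.59, Tchh at -3.57, Lyg2 at -3.52, Tchhl1 at -3.50, Krt87 at -3.40, Krtap28-13 at -3.35, Krt27 at -3.34, Krtap4-7 at -3.23, Calhm4 at -3.22 and Krtap1-5 at -3.21. Keratin-associated proteins (Krtap) crosslink the keratins of the hair shaft, and Tchh, trichohyalin, hardens the inner root sheath. Of 11 inner root sheath and companion layer markers, 10 were lower, with a median of -2.78, against -3.64, -2.90 and -1.74. Of 20 hair shaft genes, 17 were lower, with a median of -2.04, against -2.98, -0.52 and -2.91. Of 51 Krtap genes, 32 were lower by 1 log2 unit or more, against 42 in the WT pair, 2 in the KO plain pair and 46 in the KO B pair.

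Krt27 read 10.89 on KO_Allo and 7.56 on KO_IMQ_Allo, against 11.46 to 7.19, 8.98 to 5.00 and 11.79 to 9.71 in the WT, KO plain and KO B pairs. Its limma estimate against the other pairs was 0.10 ± 0.81 (adjusted p = 0.99). Krtap8-1 fell from 8.89 to 4.46, with an estimate of -0.32 ± 1.47 (limma, adjusted p = 0.98), an error wide enough to leave a difference of 1 log2 unit undetectable. The KO_CTRL array was low in hair genes (Krtap8-1 read 5.48 there, against 10.33 on WT_CTRL and 11.33 on KO_CTRL-B), and in the KO plain pair 3 of 20 hair shaft genes were above 0. Inner root sheath markers had 0 of 11 above 0 there. Among regulators of the follicle, 6 of 16 were lower, Dsg4 at -2.57 and the transcription factors Hoxc13 at -1.19 and Lef1 at -1.12 among them. All 8 melanocyte markers were below 0, with a median of -0.74 and Tyr, tyrosinase, at -1.07. Whether the hair cycle stage of the skin differed between arrays was not tested.

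Genes that fell elsewhere did not all fall here. Krt77, a type II keratin of the epidermis, read 8.60 on KO_Allo and 8.21 on KO_IMQ_Allo. It ran from 12.04 to 6.32, 12.44 to 6.36 and 11.47 to 6.55 in the other pairs, so the alloferon pair lay between the groups on both arrays. The limma estimate was 5.17 ± 0.44 (adjusted p = 0.0919). Skint5, of a family of keratinocyte membrane proteins, read 3.75 and 3.97 in the alloferon pair, with an estimate of 3.94 ± 0.45 (limma, adjusted p = 0.119). Alox12e, an epidermal lipoxygenase, had 2.79 ± 0.30 (limma, adjusted p = 0.119) and Orm1, an acute phase glycoprotein, 1.99 ± 0.23 (limma, adjusted p = 0.119). Of 11 Skint genes, 1 was higher and 1 lower by 1 log2 unit in the alloferon pair, and 5, 7 and 6 were lower in the other pairs. Skint5 ran from 6.26 to 2.82, 7.08 to 2.68 and 5.23 to 1.93 in the WT, KO plain and KO B pairs. Its values in the alloferon pair lay under the array medians of 5.68 to 5.73, so its estimate rests on dim signal.

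Fat, muscle, sebaceous gland and the remaining cell type lists had few members past 1 log2 unit in the alloferon pair. Adipocyte markers had a median of -0.01, against -0.74, -1.33 and -0.96, and their median level on KO_Allo, 7.30, was below the 7.84 to 8.71 of the other arrays without IMQ. Skeletal muscle markers had a median of -0.51, with 15 of 16 below 0, against -1.83, -2.11 and -0.58, from a level of 8.79 on KO_Allo against 8.92 to 11.15. Sebaceous gland genes had a median of -0.10, with Fads2 lower at -1.44. T cell (0.10), NK (0.15), B and plasma cell (-0.07), dendritic and Langerhans cell (0.09) and Schwann cell (-0.03) markers had medians within 0.15 of 0. Endothelial markers had a median of -0.24, against 0.88, 0.27 and 0.63 in the WT, KO plain and KO B pairs. How much fat or muscle each sample held was not tested.

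**Figure D2:**
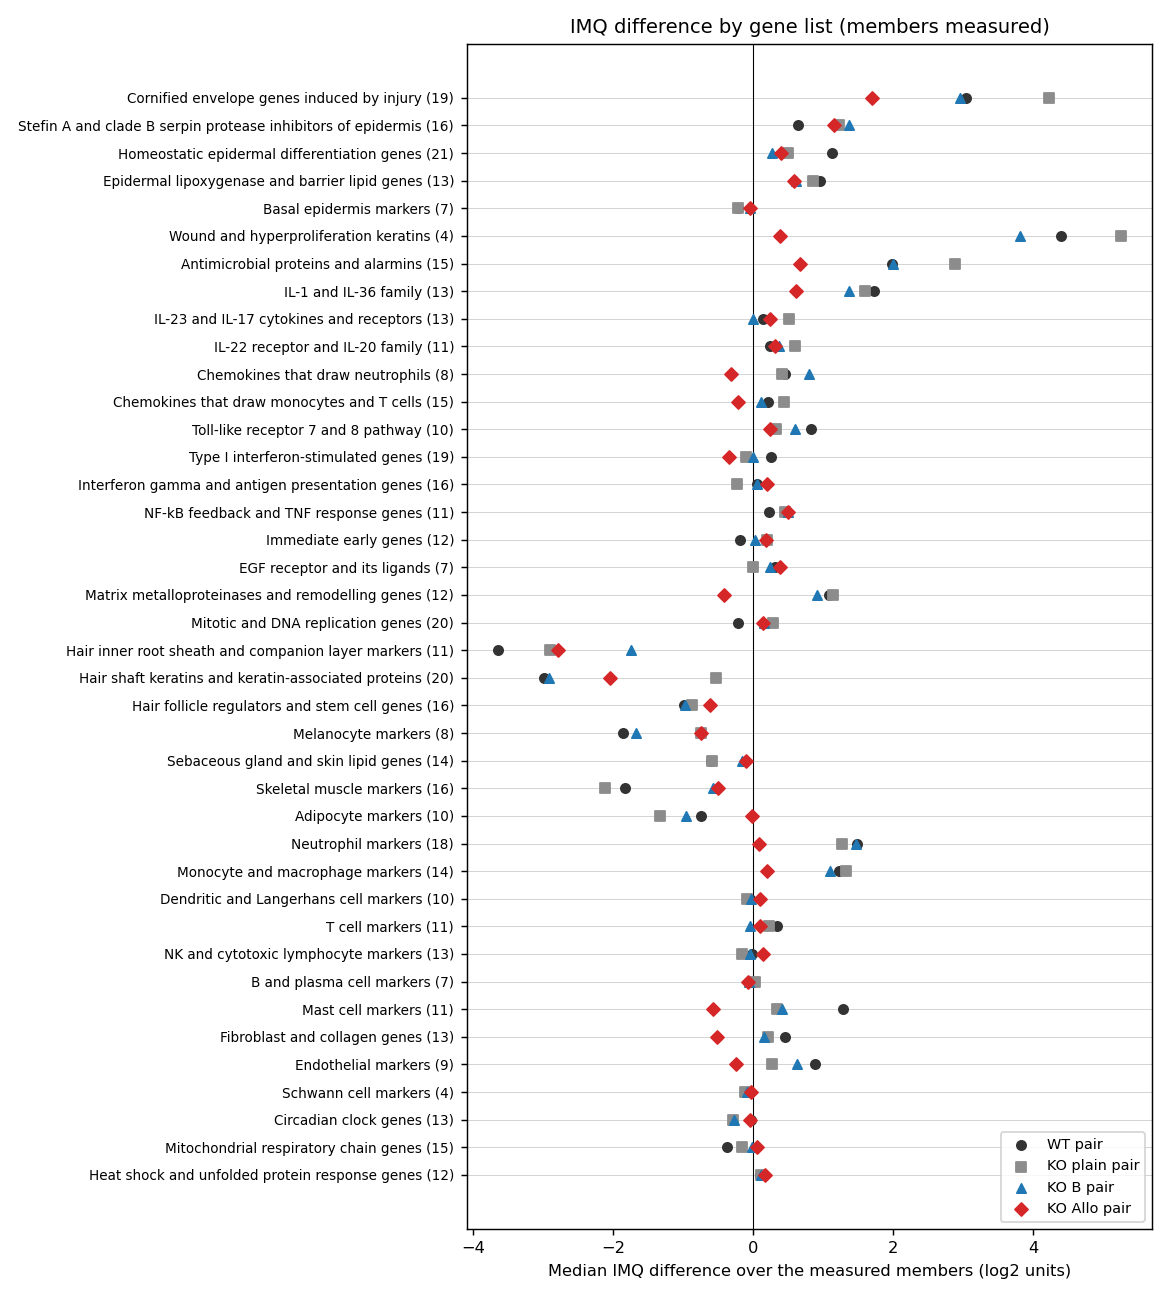
Median IMQ difference (log2 units, horizontal axis) of 40 gene lists in each pair, with the number of measured members in brackets; red diamonds are the alloferon pair. The diamond of the wound keratins lies at 0.39, far left of the other pairs, those of remodelling (-0.42), mast cell (-0.57) and fibroblast (-0.51) genes lie below 0 where the others lie above, and the hair lists lie at -2.78 and -2.04.

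The pattern was then read from the other 3 pairs, which share no array with the alloferon pair. They had 258 genes higher by 1 log2 unit or more in all 3, a choice made on those 6 arrays alone. In the alloferon pair, 64 of them (24.8%) were higher by as much, 144 were higher by less, 37 were lower by less than 1 log2 unit and 13 lower by more. The background share past 1 log2 unit upward was 0.771%. Their mean difference over the other pairs had a median of 1.78, and their alloferon difference a median of 0.49. The array KO_Allo lay above all 3 other arrays without IMQ in 232 of the 258, and KO_IMQ_Allo below all 3 other IMQ arrays in 177. The medians of these departures were 0.77 and -0.58, so both arrays departed and the array without IMQ by more. Alloferon, the animals, the array and any IMQ that the skin on KO_Allo may have received cannot be told apart here, since each label has 1 array.

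Of 82 genes lower in all 3 other pairs, 36 (43.9%) were lower by 1 log2 unit or more in the alloferon pair, against a background of 0.938%. Another 33 were lower by less and 13 were higher by less than 1 log2 unit. Read the same way, the WT pair had 64 of 72 genes (88.9%) past 1 log2 unit upward, the KO plain pair 64 of 67 (95.5%) and the KO B pair 64 of 74 (86.5%). Those sets are smaller because the alloferon pair helped to choose them. The 64 genes are the same in each pair, since they are the genes past 1 log2 unit upward in every pair. Downward, the WT pair had 36 of 38, the KO plain pair 36 of 109 (33.0%) and the KO B pair 36 of 41. The 36 genes are likewise the same in each pair. The shares therefore differ only by how many genes the other 3 pairs had in common. That number was largest upward with the alloferon pair left out, and downward with the KO plain pair left out.

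**Figure D3:**
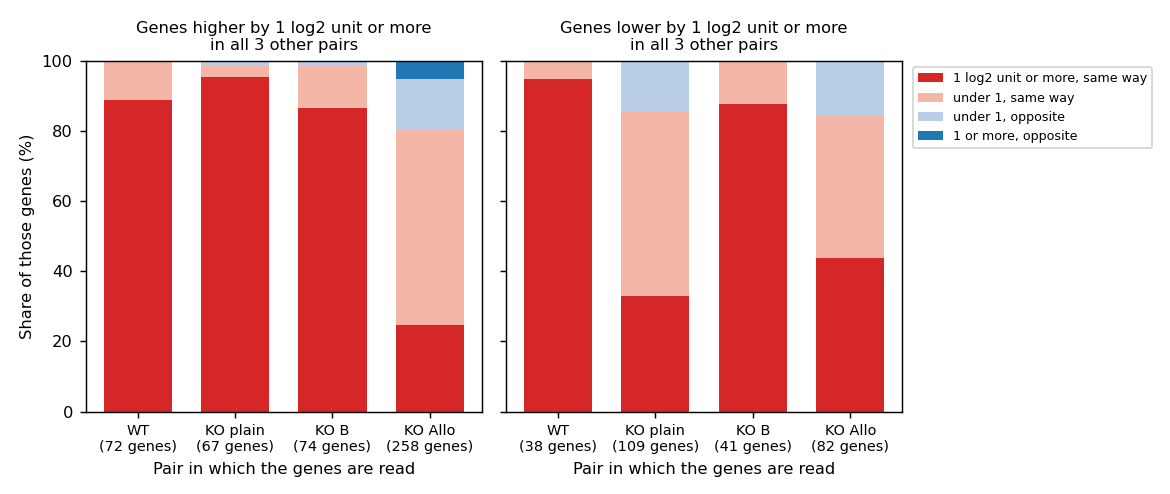
Genes that differ by 1 log2 unit or more in 3 pairs, upward on the left and downward on the right, read in the pair left out; each bar splits them into 4 classes as percent of those genes (vertical axis), with the number of genes under the bar. In the alloferon pair 24.8% of the rises kept 1 log2 unit, and it is the one bar with genes past 1 log2 unit the opposite way. The class past 1 log2 unit the same way holds the same genes in every bar of a panel, so its share depends only on the number of genes under the bar.

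Of the 64 shared rises, 24 were in the 4 lists of cornified envelope, stefin and serpin, differentiation and barrier lipid genes, and 29 were in none of the lists used. Of cornified envelope genes higher in all 3 other pairs, 13 of 14 were past 1 log2 unit in the alloferon pair as well. The same held for 6 of 6 stefins and serpins and 6 of 10 antimicrobial genes. In contrast it held for 0 of 3 wound keratins, 0 of 5 remodelling genes, 0 of 2 neutrophil chemokines, 2 of 9 neutrophil markers and 1 of 7 macrophage markers. Of the genes lower in all 3 other pairs, 8 of 8 inner root sheath, 6 of 6 hair shaft and 5 of 5 hair regulator genes kept 1 log2 unit.

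A ranking by limma over the other 3 pairs gave the same picture. That fit called 826 genes higher (3.72%) and 481 lower (2.17%). In the alloferon pair 623 of the 826 (75.4%) were above 0, against 50.1% of all genes, and 388 of the 481 (80.7%) below 0. The median ratio of the alloferon difference to the mean of the others was 0.301 for the rises and 0.367 for the falls. Among the 200 genes of smallest p, 166 (83%) had the same sign in the alloferon pair and the median ratio was 0.302. With the same construction, 198, 185 and 196 of 200 had the same sign in the WT, KO plain and KO B pairs. The ratios were 1.11, 0.708 and 0.865 in that order. With 50 genes ranked, the ratio was 0.366 in the alloferon pair and lower, at 0.287, in the KO plain pair. Over the 22180 genes, with genes not being replicates of each other, the differences of the alloferon pair correlated with those of the WT, KO plain and KO B pairs at Pearson r = 0.370, 0.307 and 0.394. The other pairs correlated with each other at 0.577 to 0.689. Those values share the normalization of all arrays.

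**Figure D4:**
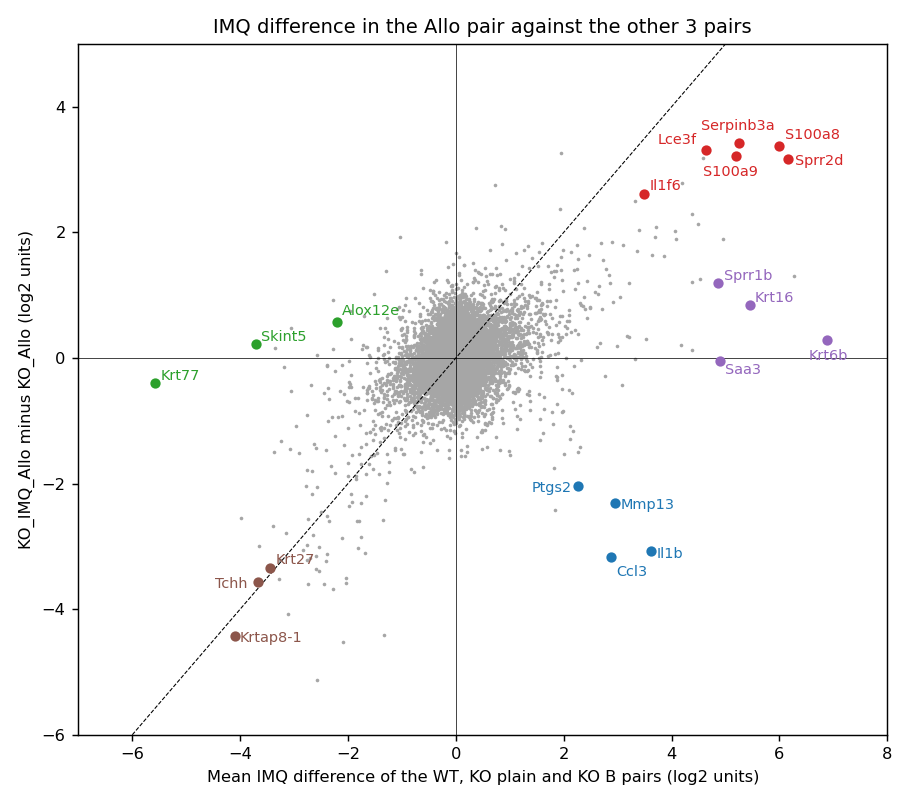
IMQ difference of each of 22180 genes in the alloferon pair (vertical axis, log2 units) against its mean over the WT, KO plain and KO B pairs (horizontal axis, log2 units); the dashed line marks equal values. Red genes kept a rise, purple genes had a far smaller difference here (Sprr1b 1.20, Krt6b 0.29), blue genes ran the opposite way (Il1b at -3.08, Ccl3 at -3.17), brown hair genes lie near the line, and green genes fell elsewhere but not here.

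Promoters of the 64 shared rises and of the 50 genes with the opposite sign were searched on both strands for 5 motifs, of which no 2 overlapped in the promoters printed above. RefSeq promoters were found for 52 and 41 genes. The AP-1 motif TGANTCA was in 15 of the 52 (28.8%) and 7 of the 41 (17.1%), against 7.81% of 32851 promoters of the same length. The TATA box TATAAA was in 32.7% and 29.3%, against 13.6%. The NF-kB motif (GGGA, then 4 bases of any kind, then CC) was in 21.2% and 12.2%, against 20.7%. The STAT motif TTCNNNGAA was in 5.77% and 4.88%, against 8.30%, and the C/EBP motif TTGCNNAA in 23.1% and 17.1%, against 10.8%. A match is a run of letters and not a measured site, and neighbouring members of the Lce3 and Sprr2 groups share sequence.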

How the data were processed

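RNA of dorsal skin was measured on 8 Affymetrix arrays, 1 per label. The deposited log2 values were made by the authors with robust multi-array averaging (RMA), and Affymetrix Power Tools and R 3.3.2 are named without a role, per the submitters' processing notes. RMA puts all arrays on a common distribution, which removes a change shared by most genes and compresses differences of dim genes. The array medians differed by 0.05 log2 units and 0 array pairs were identical. No count or depth exists for arrays; their number limits the precision. The sources used here do not give the genome build of the array design.

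Of 41345 probe sets, 23521 had 1 gene symbol in the platform annotation, 1814 several and 16010 none. Entrez identifiers of 23328 were matched to RefSeq (GRCm38.p6) and 0 symbols changed, so older symbols remain. For the 1082 genes that had more than one probe set, the set of highest mean over the arrays was used, leaving 22180 genes. No dim genes were left out.

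The alloferon pair was compared without a test at a threshold of 1 log2 unit. Its difference from the other pairs was fitted with limma 3.58.1 in R 4.3.3 (lmFit, eBayes): a level per arm, an IMQ effect, and a further IMQ effect in the alloferon pair, over 8 arrays with 2 residual degrees of freedom, Benjamini-Hochberg over all genes, adjusted p under 0.05. The lone alloferon pair is assumed to vary like the others. An exact permutation of 1 pair against 3 cannot go below 0.25, so none was run. A second fit took the IMQ effect over the other 3 pairs. On simulated data with 200 changed genes among 22180, the second fit found 33% at 1 log2 unit, 85% at 2 and 91.5% at 3. Errors after ± are limma standard errors.

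The comparison, the 41 gene lists and the named genes were chosen with earlier results of these data known, so lists are described by counts and medians. One list, of red blood cell markers, had fewer than 3 measured members and is not described. Genes were named by rule: the 15 largest differences each way among genes above the median level (clone-type symbols, olfactory and vomeronasal receptors and receptor segments left out), up to 4 of largest size per list, and the 10 of smallest p each way in either fit, with Il22ra1 and Tlr7. Other genes were named after their values were seen. Alternatives were other scalings, probe-set rules, thresholds, priors, designs and a filter on dim genes.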

Additional observations from a re-analysis of the deposited data

Results flagged for a closer look

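Mmp13 (-5.27) and Sprr1b (-3.67) were singled out because limma's test of the alloferon pair against the other pairs called them, both with Benjamini-Hochberg adjusted p = 0.0251. For Sprr1b the sign was the same in every pair and the size differed. For Mmp13 it was opposite. For the following, every other pair was higher with IMQ by 1 log2 unit or more and the alloferon pair lower by as much: Ccl3 (-3.17), Cd14 (-1.04), Clec4d (-1.09), Clec4e (-1.50), Cxcl2 (-1.53), Hdc (-1.29) and Il1b (-3.08). Of these only 1 alloferon pair exists, and in limma the difference from the other pairs did not pass for any of the 7 genes. Acod1 (-2.42), Ccr1 (-1.19), Prg4 (-1.42), Ptgs2 (-2.03) and Slfn4 (-1.75), named in the set of 13 above, met the same condition on the differences. The list medians of matrix metalloproteinases and remodelling genes (-0.419), mast cell markers (-0.572) and fibroblast and collagen genes (-0.512) were below 0 in the alloferon pair and above 0 in each other pair. Only medians of 0.4 log2 units or more in size were flagged. Under that size, chemokines that draw neutrophils (-0.31), chemokines for monocytes and T cells (-0.21) and endothelial markers (-0.24) had the same signs. The difference between pairs was not tested for the lists.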

How the results depend on the processing

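The alloferon pair has 1 array a side, so no value of it has a replicate check, and genes near the background are compressed by RMA. Without dim genes (11090 tested), 102 genes were higher and 121 lower, and at a threshold of 1.5 log2 units 51 and 90. The test of the alloferon pair against the other pairs called 2 genes, and 33 with a trended and robust prior, 1 without arm levels, 0 on KO arrays alone (1473 genes with an unadjusted p under 0.05; smallest limma adjusted p 0.247), 23 without the KO plain pair, 24 without the KO B pair, 3 without dim genes and 2 after quantile normalization. Without arm levels the single call was Il1b (limma adjusted p = 0.024), and Mmp13 and Sprr1b were lost. The filter on dim genes left out Mmp13, and the calls in that setting were Sprr1b, Fetub and Il1b. With 50 genes ranked in place of 200, 90% had the same sign in the alloferon pair. The median ratio was then 0.366 there and 0.287 in the KO plain pair, so the alloferon ratio was not the lowest. With 500 genes ranked the ratios were 0.303 and 0.919. Without dim genes, list medians moved to 1.69 for antimicrobial proteins (10 members left), 0.63 for EGF receptor and ligands, -0.89 for hair regulators, 0.78 for neutrophil markers (6 left) and 0.01 for dendritic cells; after quantile normalization the B cell median was -0.12. No difference of a named gene, list median or count of calls changed direction in the alternatives run for it. The median over all genes of the alloferon pair, 0.00082, was -0.00328 after centring and -0.0115 after quantile normalization. The cause of each shift was not tested beyond the smaller number of genes, arrays or members. The main fit pairs the arrays by arm, and the fit without arm levels does not. No paired analysis was possible by replicate number, because each label has 1 array.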

Other observations

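Some genes past 1 log2 unit in the alloferon pair were under 0.5 log2 units in the same direction in each other pair. There were 43 such genes higher (0.194% of all genes) and 56 lower (0.252%). Of these, 12 of the 43 and 29 of the 56 had the opposite sign in all 3 other pairs. So had 16.6% of all genes above 0 and 15.9% of all genes below 0 in the alloferon pair. Those shares were taken without the limit of 0.5 log2 units, which by itself favours opposite signs, so they are not a like comparison. The genes named here were chosen after their values were seen. Among those lower were Adam12 at -1.54, a metalloproteinase with a disintegrin domain, Col12a1 at -1.48, a fibril-associated collagen, Lrrc17 at -1.42, Cdh11, the fibroblast cadherin, at -1.26, Sfrp2 at -1.05, a Wnt modulator, and Srpx2 at -1.04. In the WT pair the same genes were higher, at 1.69, 1.57, 1.44, 1.08, 1.40 and 1.39. In the KO plain pair they were 0.54, 1.00, -0.20, 0.91, -0.48 and 0.38, and in the KO B pair 0.76, 0.39, 0.49, 0.27, 0.83 and 0.85. Nlrp3, the inflammasome sensor that matures IL-1 beta, was -1.46 in the alloferon pair and 1.20, 0.29 and 0.96 in the WT, KO plain and KO B pairs.

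Among those higher were Atp1b1 at 1.62, a sodium pump subunit, Calcb at 1.67, a calcitonin gene-related peptide, Chit1 at 1.48, a chitinase of macrophages, Glul at 1.17, glutamine synthetase, and Slurp1 at 1.08, a secreted epidermal protein. In the WT, KO plain and KO B pairs Atp1b1 read -0.38, 0.48 and 0.06 and Chit1 0.34, -0.01 and 0.15. Orm1 (1.34) and Cyp2b23 (1.38) were lower in each other pair. None of the genes in these paragraphs passed limma's test against the other pairs, which called 2 genes at an adjusted p under 0.05 and left 1828 with an unadjusted p under 0.05. Each value rests on 1 array a side.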
